A study of Drosophila melanogaster with 21 samples.

Results

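The chorion protein genes examined here were Cp7Fa, Cp7Fb, Cp7Fc, Cp36, Cp38, Cp15, Cp16, Cp18 and Cp19, 9 of the 13955 genes in the ovary count table of Drosophila melanogaster. They were taken by gene name as genes of the eggshell chorion, by a rule that used no measured value. Earlier results of these data were known when they were chosen. The chorion is the outer layer of the insect eggshell, and it is secreted by the follicle cells that surround each oocyte at the end of oogenesis. Its structural proteins are made in large amounts within a short time, and in Drosophila the follicle cells first amplify the DNA of the clusters that hold these genes. Transcription then runs in a fixed order, with Cp36 and Cp38 among the early genes and Cp15, Cp16, Cp18 and Cp19 among the later ones.

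The study asked what happens to transcripts when Saft, the product of CG11247, is lost. Ovaries came from females of 2 frame-shift lines made with CRISPR-Cas9 and from the isogenised white parent stock, with 3 libraries per genotype. Mutant 1 carries a deletion of 1 bp in exon 1 of CG11247 and mutant 2 a deletion of 2 bp in exon 2. Both lines are listed as stocks over the TM3, Sb balancer, and the labels do not say whether the dissected females were homozygous. The females were mated and 3 to 4 days old, and each library pooled 5 ovary pairs. Brains of the same 3 genotypes, 40 pooled per library, had 2 libraries each and served as a tissue without follicle cells. S2 cells, an established embryonic line, served as a further reference: all carried OsTir1 and Saft tagged with FLAG-AID in 1 clone (9C), and received 500 µM auxin for 24 h, the same for 48 h, or solvent, with 2 libraries per condition. Tissue libraries were depleted of ribosomal RNA and made with a directional kit, and S2 libraries were 3′ end libraries read over 75 bp.

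Ovary libraries held 14099170 to 21504138 assigned counts, brain libraries 39012114 to 45641699 and S2 libraries 6423866 to 9145515. CG11247 itself had 29.5 to 30.9 CPM (counts scaled to the library's total with TMM factors) in mutant 1 ovaries, 70.4 to 74.9 CPM in mutant 2 ovaries and 59.2 to 67.2 CPM in wild-type ovaries, so the mutant 1 libraries lay below and the mutant 2 libraries above all wild-type ones, and an mRNA level does not read the frame shift. Germline and follicle cell markers were both present in every ovary group, with none of 12 and none of 16 at 0. On the second principal component of the ovary libraries, mutant 1 replicate 1, mutant 2 replicate 3 and wild-type replicate 2 stood apart from the other 6. Counts of called chorion genes and the ratio of early to late genes are given with and without them. Nothing in the labels says whether libraries of a genotype came from separate crosses, so the p-values measure the spread between these libraries.

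In the BDGP6 annotation the 9 genes lie in 2 clusters, all on the plus strand, and both clusters are known amplicons of follicle cell DNA. The X cluster runs from 8470888 to 8483311 on chromosome X and holds Cp7Fa, Cp7Fb, Cp7Fc, Cp36 and Cp38 in that order. The cluster on 3L runs from 8726791 to 8732599 and holds Cp18, Cp15, Cp19 and Cp16, with no annotated gene overlapping any of them. The whole X cluster lies within the span of CG33223, a gene on the minus strand. CG33223 averaged 1.79 CPM in mutant 1, 1.62 CPM in mutant 2 and 1.91 CPM in wild-type ovaries. The X-linked chorion genes had at least 97.5 CPM in each ovary library. The labels do not say whether the counting used strand, and the part of CG33223 reads in the chorion counts was not tested. Cp7Fa has 4 exons, and each other chorion gene has 2 exons and 1 intron in its longest transcript.

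The chorion genes made up less of the mutant transcriptomes than of the wild-type ones. They took 1.44%, 1.64% and 1.35% of all counts in the 3 mutant 1 libraries, 1.29%, 0.988% and 1.26% in the mutant 2 libraries and 2.28%, 2.54% and 2.32% in the wild-type libraries. The mutant shares all lay below the lowest wild-type share. In counts this was 1974 to 115435 per gene and library, so counting error is small beside the spread between libraries.

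Set side by side per length, as CPM per kb of the longest annotated transcript, the genes spanned a wide range. In wild-type ovaries Cp15 was highest, at 9169 to 10599.6 CPM per kb over the 3 libraries. Cp38 (5015 to 5644), Cp18 (4405 to 6427) and Cp36 (4153 to 4934) followed, and the range of Cp18 overlapped those of both others. Cp16 (1946 to 2566) and Cp19 (1979 to 2432) overlapped each other and lay well below. Cp7Fc (536 to 589), Cp7Fb (302 to 354) and Cp7Fa (264 to 292) were lowest and did not overlap, but Cp7Fb also has a transcript of 775 bp beside the longest of 2093 bp, so its place depends on which is made.

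The order at the top differed in mutant ovaries. In mutant 1 Cp15 still had the highest mean, at 4929 CPM per kb, but its range of 3379 to 6374 overlapped those of Cp38 and Cp36. In mutant 2 Cp38 (mean 3056 CPM per kb) and Cp36 (2799) had higher means than Cp15 (2593), with overlapping ranges. In both mutants the ranges of Cp7Fb and Cp7Fc overlapped as well.

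**Figure D1:**
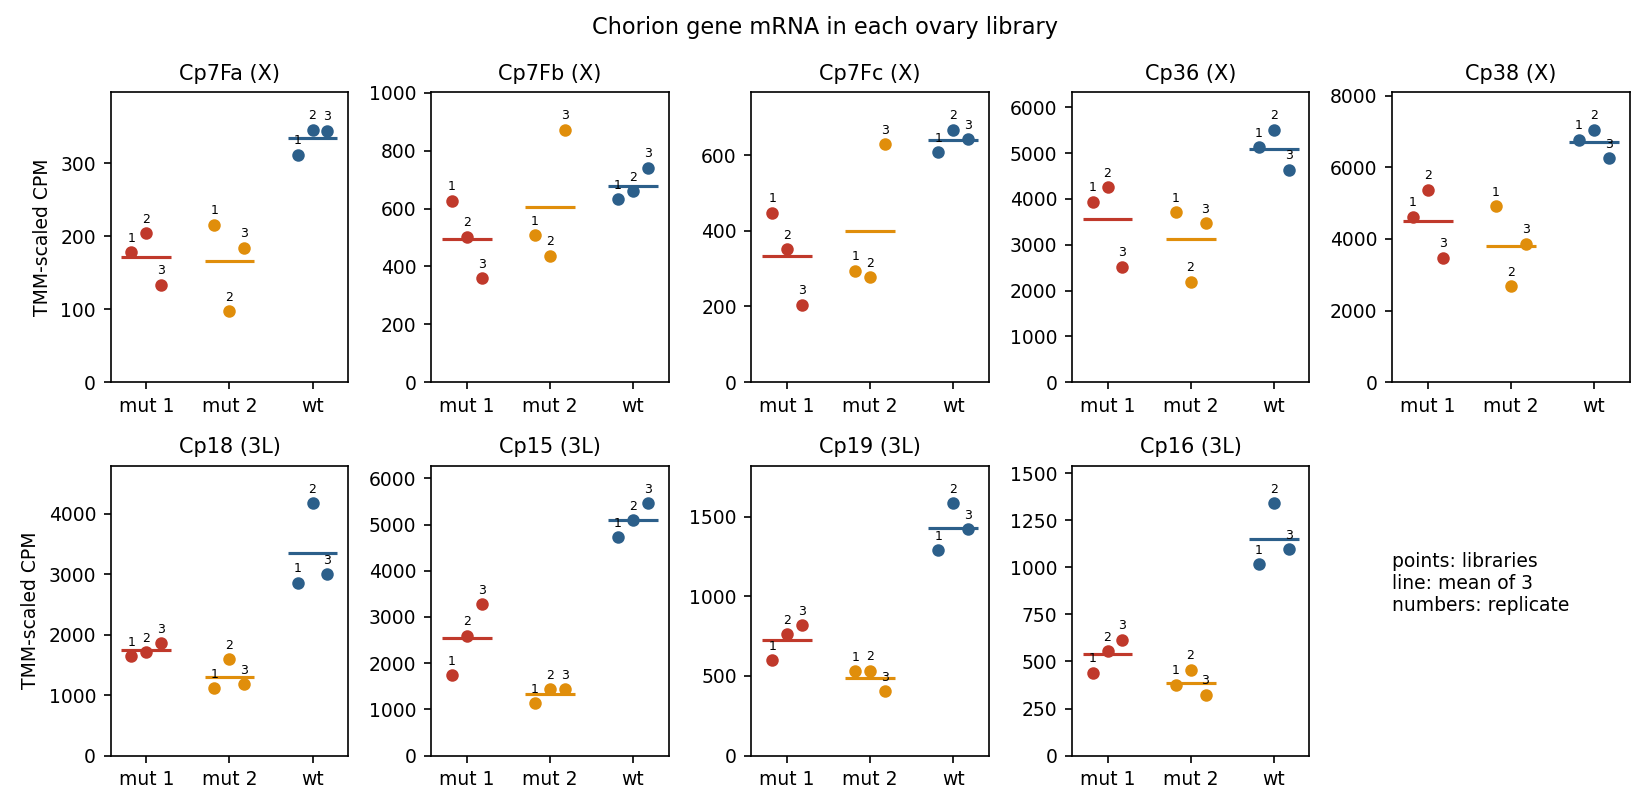
TMM-scaled CPM of each chorion gene (vertical axes from 0) in the 3 libraries of mutant 1, mutant 2 and wild-type ovaries, with the mean as a line and the replicate number above each point. For the 4 genes on 3L every mutant library lies below every wild-type library, and mutant 2 replicate 3 is the highest of all 9 libraries for Cp7Fb.

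All 4 genes of the 3L cluster, which encode late chorion proteins, fell in both mutants, to 46.7% to 52.0% of the wild-type level in mutant 1 and to 26.2% to 38.8% in mutant 2. Cp15 had 1740.1, 2593 and 3283 CPM in mutant 1 ovaries, 1139, 1432 and 1434 CPM in mutant 2 ovaries and 4722, 5088 and 5459 CPM in wild-type ovaries. All mutant libraries lay below the wild-type ones, and the mutant 1 libraries were more spread out than the others. Its log2 fold change was -1.0 ± 0.21 (SE) in mutant 1 (edgeR, adjusted p = 0.0136) and -1.93 ± 0.22 in mutant 2 (edgeR, adjusted p = 0.000761). In mutant 1 this call was lost on leaving out wild-type replicate 2 alone, with an adjusted p by edgeR of 0.0622 at the same fold change. It was kept without all 3 libraries that stand apart, that one among them, at -0.79 (edgeR, adjusted p = 0.0167).

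Cp18 had 1646, 1712 and 1859 CPM in mutant 1, 1111, 1597 and 1182 CPM in mutant 2 and 2859, 4171 and 2999 CPM in wild-type ovaries. The groups of mutant and wild-type libraries did not overlap, and wild-type replicate 2 was well above the other wild-type libraries. The log2 fold changes were -0.94 ± 0.17 in mutant 1 and -1.37 ± 0.17 in mutant 2, with edgeR adjusted p of 0.00656 and 0.00105. Without the 3 libraries that stand apart, that replicate among them, they were -0.71 and -1.11 (edgeR, adjusted p = 0.0359 and 0.0167).

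Cp19 had 599, 761 and 820.3 CPM in mutant 1, 532, 533 and 404 CPM in mutant 2 and 1288, 1583 and 1422 CPM in wild-type ovaries. Cp16 had 440.2, 556 and 616 CPM in mutant 1, 376, 456 and 323 CPM in mutant 2 and 1016, 1339.7 and 1097 CPM in wild-type ovaries. For both genes the highest mutant library was below the lowest wild-type library by a wide margin. The log2 fold changes of Cp19 were -0.98 ± 0.14 in mutant 1 and -1.55 ± 0.14 in mutant 2 (edgeR, adjusted p = 0.0017 and 8.08e-05). Those of Cp16 were -1.10 ± 0.17 and -1.58 ± 0.17 (edgeR, adjusted p = 0.00359 and 0.000537). Without the 3 libraries that stand apart Cp19 was at -0.78 and -1.35 and Cp16 at -0.85 and -1.34, all still called by edgeR.

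The early genes Cp38 and Cp36, which encode major structural proteins of the early chorion, were lower in every mutant library, but most of these differences did not pass the test. Cp38 had 4625, 5383 and 3476 CPM in mutant 1, 4912, 2674 and 3864 CPM in mutant 2 and 6779, 7049 and 6264 CPM in wild-type ovaries. Mutant 1 replicate 3 and mutant 2 replicate 2 were the lowest, and no mutant library reached the wild-type range. The log2 fold change was -0.58 ± 0.23 in mutant 1 (edgeR, adjusted p = 0.103) and -0.81 ± 0.23 in mutant 2 (edgeR, adjusted p = 0.0481). The mutant 2 call was close to the threshold and was lost in 9 of 13 other settings, among them leaving out wild-type replicate 1, 2 or 3, or mutant 2 replicate 2 or 3. Its adjusted p by edgeR or DESeq2 ran from 0.0118 to 0.356 over those 13 settings.

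Cp36 had 3934, 4258 and 2523 CPM in mutant 1, 3710.4, 2191 and 3470.5 CPM in mutant 2 and 5131, 5506 and 4635 CPM in wild-type ovaries. The same mutant libraries as for Cp38 were the lowest, and the mutant and wild-type groups did not overlap. The log2 fold changes of -0.51 ± 0.25 in mutant 1 and -0.70 ± 0.25 in mutant 2 did not pass the test (edgeR, adjusted p = 0.169 and 0.0903). DESeq2 called Cp36 lower in mutant 2, with an adjusted p of 0.0397.

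Cp7Fa, Cp7Fb and Cp7Fc, the less abundant genes at the start of the X cluster, gave no call in either mutant with edgeR. Cp7Fa had 178, 204 and 133 CPM in mutant 1, 216, 97.5 and 184 CPM in mutant 2 and 312, 346 and 345 CPM in wild-type ovaries. No mutant library reached the wild-type range, and mutant 2 replicate 2 was the lowest. The log2 fold changes were -0.96 ± 0.30 and -1.01 ± 0.30 (edgeR, adjusted p = 0.0625 in mutant 1 and 0.0663 in mutant 2). DESeq2 called Cp7Fa lower in both mutants, with adjusted p of 0.00719 and 0.00632. In mutant 2 edgeR called it without mutant 2 replicate 2 (adjusted p = 0.0382).

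Cp7Fc had 448, 351 and 205 CPM in mutant 1, 294, 278 and 628 CPM in mutant 2 and 607, 667 and 643 CPM in wild-type ovaries. Cp7Fb had 628, 503 and 358 CPM in mutant 1, 507, 438 and 872 CPM in mutant 2 and 632, 659 and 741 CPM in wild-type ovaries. Mutant 2 replicate 3, one of the libraries that stand apart, was high for both genes and made the mutant 2 and wild-type groups overlap. The log2 fold changes of Cp7Fc were -0.93 ± 0.41 in mutant 1 and -0.68 ± 0.40 in mutant 2 (edgeR, adjusted p = 0.146 and 0.29). Those of Cp7Fb were -0.45 ± 0.31 and -0.16 ± 0.31 (edgeR, adjusted p = 0.324 and 0.743). Without mutant 2 replicate 3 the mutant 2 values were -1.16 for Cp7Fc and -0.52 for Cp7Fb, still not called (edgeR, adjusted p = 0.0701 and 0.169). Without all 3 libraries that stand apart they were -1.13 and -0.54 (edgeR, adjusted p = 0.14 and 0.193).

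**Figure D2:**
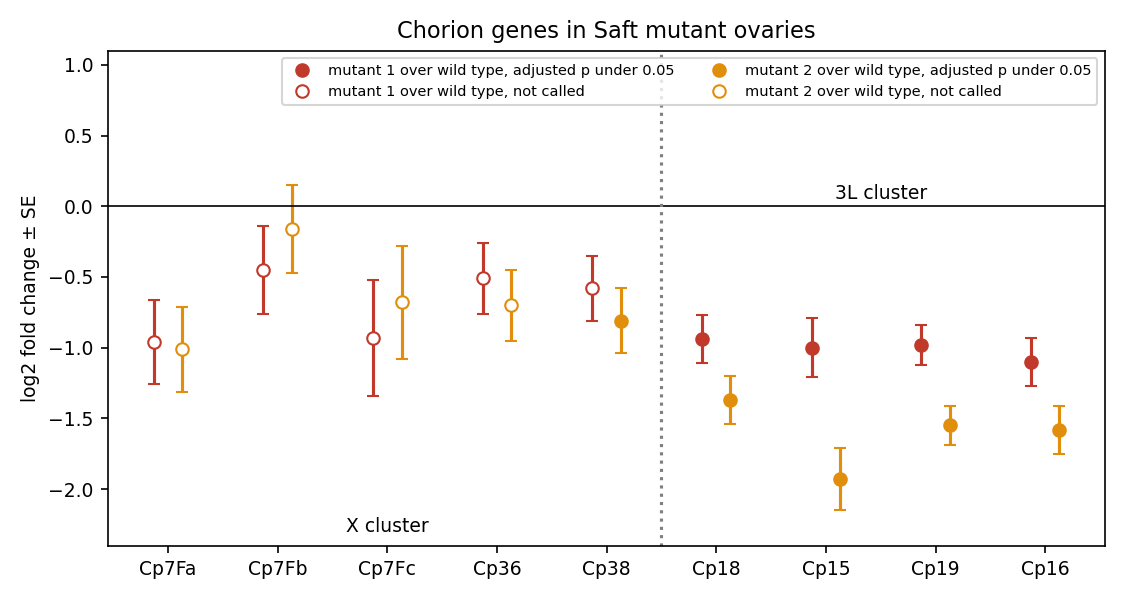
Log2 fold change with its SE (vertical axis) of each chorion gene in mutant 1 and mutant 2 ovaries over wild type, in cluster order, with filled points at an adjusted p under 0.05. The 4 genes on 3L are filled in both mutants, and Cp38 in mutant 2 is the only filled point of the X cluster.

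Counted over the 9 genes, 4 were called lower in mutant 1, where 11.2% of the 8312 genes tested were called lower, and 5 in mutant 2, where 7.35% were. None was called higher, as 12.2% and 8.77% of all genes tested were. On 3L 4 of 4 chorion genes were called lower in each mutant, beside 10.1% of the tested 3L genes in mutant 1 and 6.46% in mutant 2. On X the count was 0 of 5 in mutant 1, beside 15.3% of the tested X genes, and 1 of 5 in mutant 2, beside 10.6%. Cluster and chromosome cannot be told apart in these counts. The part of the TM3, Sb balancer in the counts on 3L was not tested. All 9 passed the filter on low counts. In mutant 1 every library was below every wild-type library for 9 of 9 genes, as it was for 20.1% of all genes tested, and in mutant 2 for 7 of 9, against 20.1%. The median log2 fold change of the 9 was -0.94 in mutant 1 and -1.01 in mutant 2, beside medians of 0.008 and 0.003 over all genes tested. Both contrasts share the 3 wild-type libraries, so the mutants are not independent evidence of the wild-type level. Without the 3 libraries that stand apart, 4 genes were called in mutant 1 and 4 in mutant 2, Cp38 being the one lost. Fewer follicle cells at the stages that make chorion and less chorion RNA per cell cannot be told apart in RNA of whole ovaries.

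Between the mutants, edgeR called none of the 9 genes at the adjusted threshold and 4 at an unadjusted p under 0.05, and 1 of 8312 genes overall (0.012%), which was CG11247. The 4 late genes had lower values in mutant 2 than in mutant 1: the log2 differences were -0.93 ± 0.21 for Cp15, -0.57 ± 0.14 for Cp19, -0.48 ± 0.17 for Cp16 and -0.42 ± 0.17 for Cp18. Their unadjusted edgeR p-values lay between 0.00231 and 0.0361, where 3.79% of all genes tested were under 0.05, and the adjusted p was 0.887 for Cp15 and for Cp19. For Cp15, Cp18 and Cp19 every mutant 2 library was below every mutant 1 library, which held for 3.81% of all genes tested, and 7.83% did not overlap in either direction. DESeq2 called Cp19 (adjusted p = 0.0138). Without mutant 1 replicate 1 edgeR called Cp15 (adjusted p = 0.00733), and without the 3 libraries that stand apart it called Cp19 (adjusted p = 0.00605). The 5 X-linked genes differed between the mutants by -0.24 to 0.29 on the log2 scale, with an SE of 0.23 or more.

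The balance of early to late transcripts was higher on average in mutant ovaries, with wide spread. Both early genes lie on X and all late genes on 3L, so timing and cluster cannot be told apart in this balance. Summed over Cp15, Cp16, Cp18 and Cp19, late transcripts came to 4425, 5622 and 6578 CPM in mutant 1, 3157, 4018 and 3344 CPM in mutant 2 and 9885, 12182 and 10977 CPM in wild-type ovaries. Summed over Cp36 and Cp38, early transcripts came to 8559, 9641 and 5999 CPM in mutant 1, 8622, 4865 and 7335 CPM in mutant 2 and 11911, 12556 and 10899 CPM in wild-type ovaries. Both sums were below wild type in each mutant library. The log2 ratio of early to late was 0.95, 0.78 and -0.13 in mutant 1, 1.45, 0.28 and 1.13 in mutant 2 and 0.27, 0.04 and -0.01 in wild type. Mutant 1 replicate 3 lay below the wild-type libraries, and the other 5 mutant libraries lay above them, mutant 2 replicate 2 only just. The means were 0.53 ± 0.58 in mutant 1, 0.95 ± 0.60 in mutant 2 and 0.10 ± 0.15 in wild type (SD, n = 3 each). Without the 3 libraries that stand apart they were 0.32, 0.86 and 0.13, and no test was made of this ratio.

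**Figure D3:**
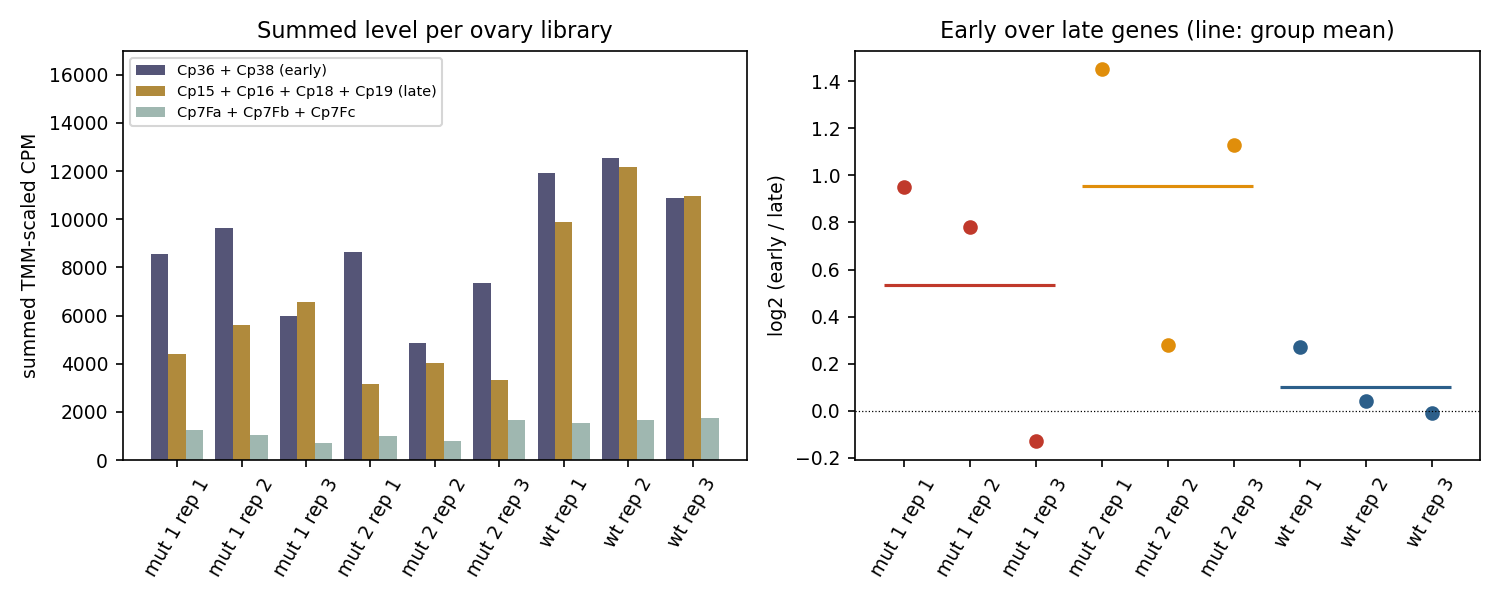
Left, summed TMM-scaled CPM of early genes (Cp36 and Cp38), late genes (Cp15, Cp16, Cp18 and Cp19) and Cp7Fa to Cp7Fc in each ovary library. Right, the log2 ratio of early to late genes with group means as lines: 5 of 6 mutant libraries lie above the 3 wild-type libraries, and mutant 1 replicate 3 lies at -0.13.

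In the mutants, libraries low for one cluster were not those low for the other. In mutant 1 replicate 3 was the lowest of the 3 libraries for 5 of 5 X-linked genes and the highest for 4 of 4 genes on 3L. In mutant 2 replicate 2 was the lowest for 5 of 5 X-linked genes and the highest for 3 of 4 genes on 3L. Mutant 1 replicate 1 was the lowest for 4 of 4 genes on 3L and for none of the X-linked genes. In wild-type ovaries the 2 clusters went together more: replicate 1 was lowest for 4 of 4 genes on 3L and 3 of 5 on X, and replicate 2 was highest for 3 of 4 on 3L and 4 of 5 on X. Neither of the 2 mutant libraries named first is among those that stand apart on the second principal component.

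With genotypes pooled, the chorion genes also varied more between libraries of a genotype than most genes did. Pooled over genotypes, the SD of their log2 levels ran from 0.21 for Cp19 to 0.51 for Cp7Fc, where the median was 0.10 over all genes tested and 0.07 over those averaging at least 100 CPM. For every chorion gene but Cp18 the spread was larger in both mutants than in wild type. The SDs of the X-linked genes were 0.31 to 0.58 in mutant 1 and 0.41 to 0.66 in mutant 2, and 0.07 to 0.12 in wild type. Medians over all genes tested were 0.10, 0.08 and 0.09 in the same order of groups. Over genes averaging at least 100 CPM they were 0.07, 0.05 and 0.06. In wild type the X-linked genes thus lay near the median over all genes tested. On 3L the SDs were 0.46, 0.19 and 0.10 for Cp15 and 0.25, 0.25 and 0.21 for Cp16, in the same order of groups. Those of Cp19 were 0.24, 0.23 and 0.15. Cp18 had SDs of 0.09 in mutant 1, 0.28 in mutant 2 and 0.30 in wild type.

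Of 12 measured genes overlapping or within 10 kb of a cluster, 1 was lower and 3 were higher in mutant 1, and 1 was lower and 2 were higher in mutant 2. These counts of lower genes are near the shares over all genes tested, 11.2% in mutant 1 and 7.35% in mutant 2, and 12.2% and 8.77% were called higher. The lower one was CG43965 in both cases, a gene of 255 bp on the minus strand within CG6511, ending 1016 bp before the start of Cp18. It averaged 6.68 ± 1.35 CPM in mutant 1, 4.49 ± 1.91 CPM in mutant 2 and 13.7 ± 2.55 CPM in wild-type ovaries (SD, n = 3 each). Its log2 fold changes were -1.03 ± 0.29 and -1.61 ± 0.30 (edgeR, adjusted p = 0.0295 and 0.00681), and the mutant 1 call was lost in 8 of 13 other settings. CG6511, which surrounds it on the plus strand, differed by -0.04 ± 0.07 in mutant 1 and 0.01 ± 0.07 in mutant 2.

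On the X side Sptr, which encodes sepiapterin reductase, rose by 0.30 ± 0.07 in mutant 1 and 0.26 ± 0.07 in mutant 2 (edgeR, adjusted p = 0.00963 and 0.0267). CG15347 rose by 0.58 ± 0.13 and 0.63 ± 0.13 (edgeR, adjusted p = 0.0093 and 0.00844). The germline gene otu, the nearest measured gene past Cp38, was not called, at -0.12 ± 0.05 in both mutants. Prm, the paramyosin gene that follows Cp16 on the opposite strand, rose by 0.42 ± 0.13 in mutant 1 (edgeR, adjusted p = 0.0384), a call lost in 7 of 13 other settings, and was at 0.41 ± 0.13 in mutant 2 (edgeR, adjusted p = 0.0522).

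**Figure D4:**
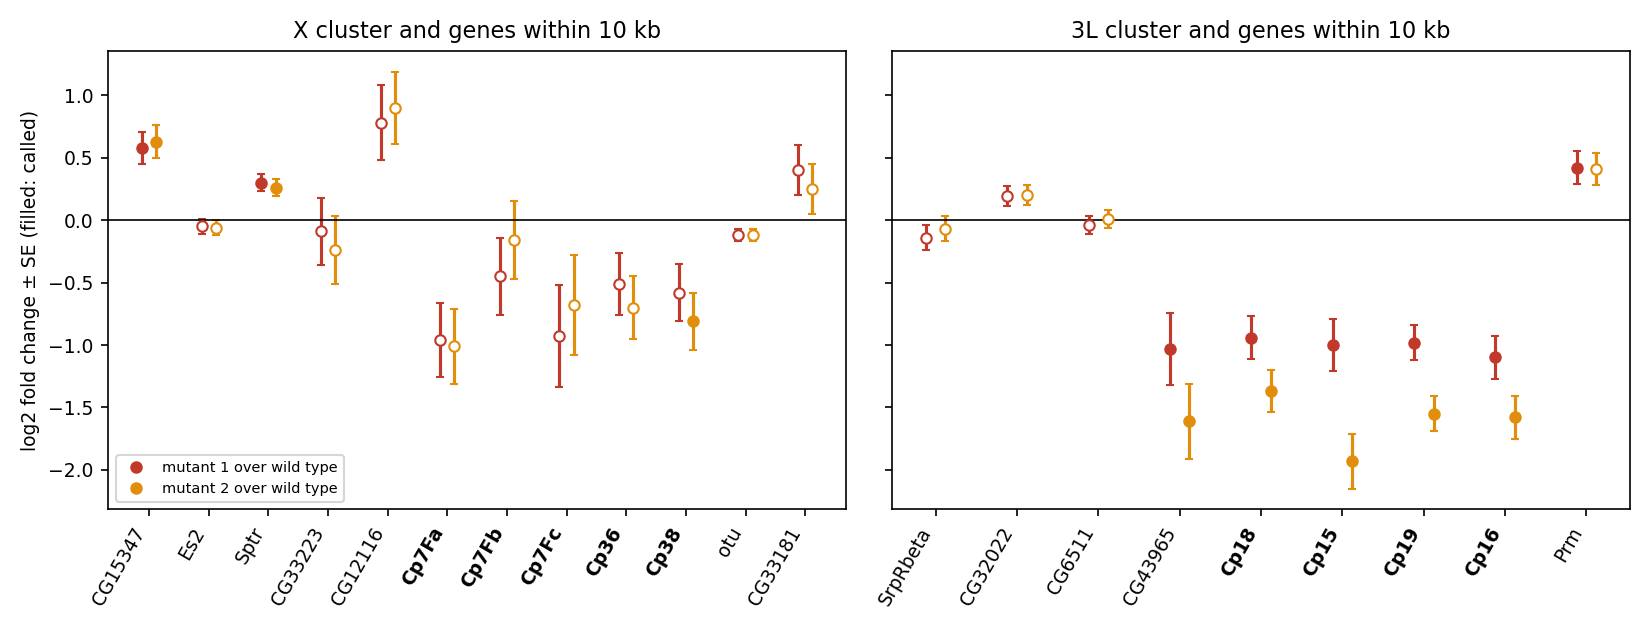
Log2 fold change with its SE (vertical axis) of the chorion genes (bold names) and of measured genes within 10 kb, in order along each cluster, in mutant 1 and mutant 2 ovaries over wild type. Filled points passed the test, and CG43965 next to Cp18 is the only neighbour that was called lower.

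Other eggshell genes were also called lower and not higher. Of 18 tested genes of the vitelline membrane, the layer beneath the chorion, and of eggshell assembly, 9 fell in mutant 1 and 6 in mutant 2, and none rose, where 11.2% and 7.35% of all genes tested were called lower and 12.2% and 8.77% higher. Their median log2 fold changes were -0.37 and -0.41. Vm26Ac, a vitelline membrane gene, averaged 35.9 ± 2.27 CPM in mutant 1, 36.8 ± 5.24 CPM in mutant 2 and 78.6 ± 5.69 CPM in wild-type ovaries (SD, n = 3 each). This was a log2 change of -1.13 ± 0.10 and -1.09 ± 0.10 (edgeR, adjusted p = 8.39e-06 and 1.04e-05).

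The gene ndl, whose protease is laid down in the eggshell for embryonic patterning, fell in both mutants, with log2 fold changes of -0.79 and -0.71 (edgeR, adjusted p = 3.75e-06 and 8.77e-06). Cad99C, a cadherin of follicle cell microvilli, fell likewise, at -0.64 and -0.53 (edgeR, adjusted p = 0.000262 and 0.0011). For Vm34Ca the log2 fold changes were -0.61 and -0.55 (edgeR, adjusted p = 0.0014 and 0.00293). The terminal patterning gene tsl fell by 0.84 on that scale in mutant 1 (edgeR, adjusted p = 0.0114), while in mutant 2 it was at -0.40 and not called.

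Among the listed genes known from the amplification of chorion DNA, none of those tested was called lower. Of 32 tested genes of origin recognition, replication licensing and its regulators, 6 were called higher in mutant 1, 1 in mutant 2 and none lower in either, with median log2 fold changes of 0.06 and 0.03. Over all genes tested, 11.2% were called lower in mutant 1 and 7.35% in mutant 2. Calls of higher genes made up 12.2% of all genes tested in mutant 1 and 8.77% in mutant 2, so counts of 6 and 1 of 32 do not set the list apart. The 4 largest in mutant 1 were small: chif, the Dbf4-like activator whose loss thins the eggshell, rose by 0.27 ± 0.06, Orc2 by 0.25 ± 0.07, Orc4 by 0.21 ± 0.06 and Myb by 0.21 ± 0.06 (edgeR, adjusted p = 0.0102, 0.022, 0.0274 and 0.0222). The calls of Orc2, Orc4 and Myb were each lost in 5 of 13 other settings. In mutant 2 chif, Orc2 and Orc4 were at 0.13, 0.18 and 0.14 and not called, and Myb rose by 0.18 ± 0.06 (edgeR, adjusted p = 0.0458), a call lost in 6 of 13. DNA copy number was not measured.

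Among 18 transcription regulators known from follicle cells, 4 fell and 2 rose in mutant 1, and 5 fell and 1 rose in mutant 2. Calls went both ways, with more of them lower, and the median log2 fold changes were -0.04 and 0.02. Over all genes tested 11.2% were called lower and 12.2% higher in mutant 1, and 7.35% and 8.77% in mutant 2. Blimp-1, an ecdysone-inducible transcriptional repressor, averaged 12.5 ± 1.26 CPM in mutant 1, 12.4 ± 1.00 CPM in mutant 2 and 1.00 ± 0.29 CPM in wild-type ovaries (SD, n = 3 each). That is 3.64 ± 0.18 on the log2 scale in both mutants (edgeR, adjusted p = 2.43e-08 and 2.46e-08). The homeobox gene ct fell in both, with log2 fold changes of -1.22 and -1.16 (edgeR, adjusted p = 6.01e-07 and 9.73e-07).

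The Broad gene br, an ecdysone-response regulator that patterns the dorsal appendages, was lower by the test in both, at -0.35 and -0.40 (edgeR, adjusted p = 0.0247 and 0.0205), calls lost in 5 and 3 of 13 other settings. The somatic factor tj fell in both as well, at -0.43 and -0.29 (edgeR, adjusted p = 0.000393 and 0.00697). The bHLH-PAS gene sim fell by 0.40 in mutant 2 (edgeR, adjusted p = 0.0173), a call lost in 4 of 13 other settings, and was at -0.27 and not called in mutant 1.

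Of 10 genes used by mature follicles, 3 rose and 1 fell in mutant 1, and 1 rose and 2 fell in mutant 2. The gene sim, also in the list before, is 1 of the 2 that fell in mutant 2. With 10 genes, the shares over all genes tested (12.2% higher and 11.2% lower in mutant 1, 8.77% and 7.35% in mutant 2) come to about 1 gene in each direction. The relaxin-like hormone gene Ilp8 rose to 43.0 ± 6.06 CPM in mutant 1 and 32.0 ± 2.12 CPM in mutant 2, against 17.8 ± 1.89 CPM in wild-type ovaries (SD, n = 3 each; edgeR, adjusted p = 7.33e-06 and 0.000336). Cyp18a1, which encodes an ecdysteroid-inactivating enzyme, fell in both, with log2 fold changes of -1.16 and -0.98 (edgeR, adjusted p = 0.000282 and 0.000892). In mutant 1 the metalloprotease gene Mmp2 rose by 0.52 and the NADPH oxidase gene Nox by 0.34 (edgeR, adjusted p = 0.0102 and 0.00112), and in mutant 2 they were at 0.26 and 0.13 and not called.

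Other markers did not all move with the chorion genes. Over all genes tested 11.2% were called lower and 12.2% higher in mutant 1, and 7.35% and 8.77% in mutant 2. Of the 12 germline markers, 2 were called lower in mutant 1 and 3 in mutant 2, and none higher. Their summed level was 4734 to 4900.0 CPM in mutant 1, 4698 to 4839.9 CPM in mutant 2 and 4506 to 4886 CPM in wild-type ovaries, which overlap. The 16 follicle cell markers, of which 9 are also in the eggshell list, summed to 11285 to 12029.8 CPM in mutant 1, 11558 to 12564 CPM in mutant 2 and 14880.4 to 18497 CPM in wild-type ovaries. In mutant 1, 7 of them were called lower and 1, Fas3, higher, and in mutant 2, 6 were lower and Fas3 higher. In brain the same 16 genes summed to 10731 to 13222 CPM in mutant 1, 11505 to 12339 CPM in mutant 2 and 14203 to 18921 CPM in wild type, so this sum does not read follicle cells alone. Nearly all of the brain sum was from the yolk protein genes Yp1, Yp2 and Yp3, which fat body also makes. A split made after seeing the data left 13 markers without them, which hold all 9 of the eggshell list. These 13 summed to 4852 to 5013 CPM in mutant 1, 4741 to 5571 CPM in mutant 2 and 6478 to 6548 CPM in wild-type ovaries. Over all brain libraries they summed to 123 to 138 CPM. Of the 13, 5 were called lower in mutant 1 ovaries and 4 in mutant 2 ovaries, and Fas3 was called higher in both. Those called lower were tj and genes of the eggshell list, so this sum is not separate from the eggshell result. The 10 muscle markers summed to 857 to 910.2, 789.8 to 1300.5 and 741 to 869.8 CPM in mutant 1, mutant 2 and wild type, and 4 of 8 tested were called higher in mutant 2 and none in mutant 1.

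Sums of 10 hemocyte markers were 608 to 687 CPM in mutant 1, 562 to 891 CPM in mutant 2 and 886 to 919.7 CPM in wild type, with He at 0 throughout, 1 called lower in mutant 1 and 2 called higher in mutant 2. The 8 fat body markers summed to 47.6 to 93.8, 18.8 to 170.2 and 37.8 to 215 CPM in mutant 1, mutant 2 and wild type. The 8 spermatheca and oviduct markers summed to 88.9 to 116 CPM in mutant 1, 96.6 to 100.6 CPM in mutant 2 and 77 to 91.2 CPM in wild type, with Dup99B at 0. Of the fat body list and of this one, 1 gene each was called in mutant 1, higher, and none in mutant 2. The shares called over all genes tested were 11.2% lower and 12.2% higher in mutant 1, and 7.35% and 8.77% in mutant 2. The 10 markers of neurons and glia summed to 44 to 45.5, 45.5 to 48.4 and 44.8 to 60.4 CPM in the same order of groups, with no call. The part of any of these cell types in the chorion values was not tested.

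The genes whose levels over the 9 ovary libraries were most like the mean of the chorion genes were CG16956, CG4009, sdt, Mco1 and Top3beta, out of 6920 genes with at least 5 CPM on average. Pearson's r of their log2(CPM + 1) values with the mean of the standardised chorion values ran from 0.96 to 0.974, and it rests largely on the shared difference between mutant and wild-type libraries. CG16956 averaged 4.91 ± 1.40 CPM in mutant 1, 3.74 ± 0.26 CPM in mutant 2 and 16.8 ± 0.79 CPM in wild-type ovaries (SD, n = 3 each). Mco1, which encodes a multicopper oxidase, averaged 3.95 ± 0.23, 2.67 ± 0.42 and 13.1 ± 0.70 CPM in the same order of groups. CG4009, a predicted peroxidase gene, averaged 171 ± 47.1 CPM in mutant 1, 143 ± 62.9 CPM in mutant 2 and 414 ± 15.1 CPM in wild type. The differences of sdt (89.1, 88.7 and 109 CPM) and Top3beta (125, 121 and 138 CPM) were much smaller, so a high r did not mean a like size of change.

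In brain, which has no follicle cells, the chorion genes were far below their ovary levels, and 6 of 9 did not pass the filter on low counts. None of 10 neuronal and glial markers was at 0 in the brain libraries, where they summed to 12741 to 13478 CPM. Markers of other cell types were present too. Muscle markers summed to 7757 to 8608 CPM, hemocyte markers to 3167 to 4900 CPM and fat body markers to 2165 to 3544 CPM. Summed over the 6 libraries, the 9 chorion genes had 735 counts, of which Cp7Fa had 429, Cp18 had 111 and Cp7Fb had 103. Cp7Fa had 1.53 and 1.59 CPM in mutant 1 brains, 1.96 and 1.90 CPM in mutant 2 brains and 1.79 and 1.30 CPM in wild-type brains. Both mutant 2 values were the highest, and the mutant 1 values lay within the wild-type range. A count of 3, the limit that a count of 0 allows, is worth 0.0669 to 0.0762 CPM there. Cp15, Cp16 and Cp19 had 0 to 2 counts per library and stayed at or under it, which covers counting error only. Cp7Fa had 57 to 88 counts in each library and Cp7Fb and Cp18 had 11 to 25 each, all above that limit. Cp36 had 0 to 12, Cp38 2 to 11 and Cp7Fc 2 to 8 counts.

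Cp7Fa, Cp7Fb and Cp18 passed the filter on low counts in brain, and edgeR called none in mutant 1 (2.66% of 9880 genes tested were called) or mutant 2 (2.96%). Their unadjusted edgeR p-values were 0.156 or more, and DESeq2 called none of the genes it could test. Cp18 had 0.256 and 0.604 CPM in mutant 1 brains, 0.401 and 0.279 CPM in mutant 2 brains and 0.487 and 0.569 CPM in wild-type brains, overlapping in mutant 1. It starts 682 bp after the end of CG6511 on the same strand, and CG6511 averaged 20.2, 19.0 and 23.2 CPM in the same order of groups. The part of reads from that gene in the Cp18 counts was not tested.

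In S2 cells 6 chorion genes have a row in the table, and Cp7Fc, Cp19 and Cp36 were not analysed there. The 6 genes had 52 counts in all over the 6 libraries, and 44 of them were from Cp18. The other 5 had 0 to 2 counts per library, below the 3 counts that a count of 0 allows, which is 0.332 to 0.456 CPM. Cp18 had 5 and 12 counts after 24 h of auxin, 3 and 16 after 48 h and 4 in each untreated library, and replicate 2 was the higher one in both treated groups. It was the only one tested, and edgeR called it neither at 24 h, where 0.0979% of 7152 genes tested were called, nor at 48 h (0.112%). Its unadjusted edgeR p was 0.373 at 24 h and 0.323 at 48 h, and DESeq2 called none. With the replicate number as a block, which pairs the S2 libraries, 138 and 191 genes were called instead of 7 and 8, and Cp18 was still not.

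**Figure D5:**
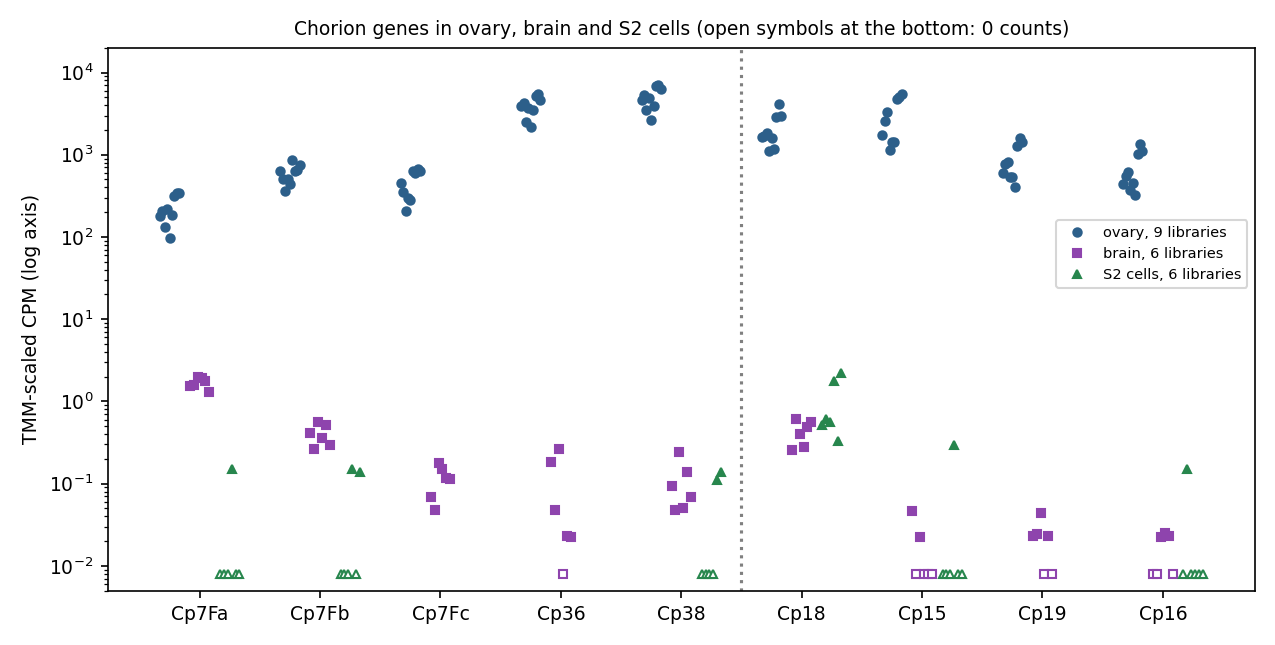
TMM-scaled CPM (log axis) of each chorion gene in all ovary, brain and S2 libraries, with libraries at 0 counts as open symbols at the bottom and no points for the genes not analysed in S2 cells. Ovary values lie far above the others for every gene, and in S2 cells Cp18 alone is above 0 in all 6 libraries.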

How the data were processed

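Brain and ovary values are estimated counts per gene, which the authors deposited as tables for 13955 genes. Per the submitters' processing notes, Trim Galore 0.6.2 and Salmon 1.2.1 were used on the tissue reads and the genome build was dm3. For S2 cells the authors deposited whole counts for each transcript, with no counting tool named in the labels. Transcripts were joined to genes through the BDGP6 annotation (356 of 26009 found no gene), and each S2 gene is its isoform with the highest total. Estimated counts were rounded. Coordinates and lengths are from BDGP6 and were not used with dm3. No sequence of these genes was used here.

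Each table was fitted on its own with edgeR 4.0.16 (limma 3.58.1, R 4.3.3): TMM scaling, its default filter on low counts, a robust quasi-likelihood test with all groups in 1 fit, and Benjamini-Hochberg adjustment over all genes tested, called at 0.05. The same steps were run on simulated counts drawn independently for each gene and library. Those counts do not hold deviations shared by many genes of a library, and no result here rests on them. CPM are counts scaled to library totals with TMM factors. The SE is that of the fitted log2 change. Early and late sums were compared by values only. DESeq2 1.42.0 was an alternative, with other scalings, filters and samples. Figures were drawn with matplotlib 3.10.9.

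The text names the 9 chorion genes, CG11247, up to 4 called genes with the largest change per list and contrast, and the 5 most like the chorion mean. Neighbours within 10 kb were added after their values were seen, as were CG33223, CG6511, otu, Fas3 and the yolk protein genes. The members and lists were chosen with earlier results of these data known. The listed names dec-1, Mur4B, fs(1)ph and bwk matched no entry and were not analysed here, and cut is the gene ct.

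Same-numbered libraries deviated together in S2 cells (correlations of deviations 0.60 to 0.73 over 6 pairs), so the number was taken to pair them. With 2 libraries a group the deviations mirror each other, so each S2 value occurs for both numbers and the 6 pairs are not independent. The main S2 fit had no block, and the blocked fit is given as an alternative. Same-numbered libraries did not deviate together in ovary (-0.30 to 0.25) or brain (-0.02 to 0.34).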

Additional observations from a re-analysis of the deposited data

How the results depend on the processing

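The counts of chorion genes called lower were 4 in mutant 1 and 5 in mutant 2. They were 5 and 7 with DESeq2, 6 and 4 with only the compared groups in the fit, 4 and 4 without a filter, and 4 and 5 under either other scaling. With the replicate number as a block, which does not pair the ovary libraries, they were 4 and 4. Leaving out 1 library gave 3 to 4 in mutant 1 and 4 to 5 in mutant 2. Between the mutants 0 became 1 with DESeq2, 1 without the 3 libraries that stand apart (a setting chosen after seeing the data) and 0 to 1 on leaving out 1 library. Brain and S2 counts stayed at 0 in every setting run; Cp18 was not tested in S2 cells with only the compared groups. The log2 ratio of early to late genes, taken as a mean of log2 values, was 1.79 in mutant 1, 2.16 in mutant 2 and 1.35 in wild type, and with all X-linked genes as early it was 0.70, 1.18 and 0.29 in the same order of groups. Leaving out 1 library gave 0.32 to 0.86 in mutant 1, 0.70 to 1.29 in mutant 2 and 0.01 to 0.16 in wild type.

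Some uncalled log2 differences changed sign on leaving out 1 library. They ran from -0.52 to 0.03 for Cp7Fb in mutant 2 against wild type. Between the mutants they ran from -0.29 to 0.22 for Cp7Fa, from -0.07 to 0.49 for Cp7Fb, from -0.23 to 0.52 for Cp7Fc and from -0.39 to 0.01 for Cp36. In mutant 1 brains the ranges were -0.19 to 0.27 for Cp7Fa, -0.59 to 0.21 for Cp7Fb and -1.04 to 0.19 for Cp18, and in mutant 2 brains -0.18 to 0.63 for Cp7Fb. For Cp18 in S2 cells at 48 h the range was -0.72 to 1.95. The causes were not tested. Over all genes, 1953 calls in mutant 1 ovaries became as few as 996 on leaving out 1 library, and 1340 in mutant 2 as few as 604, or 614 without the 3 libraries. Between the mutants 1 call became up to 18, in brain 263 and 292 ran from 149 to 539, and in S2 cells 7 and 8 ran from 1 to 36 outside the blocked fit. With 3 or 2 libraries a group, the spread between libraries and not the depth limits the ovary values.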
